A study of Mus musculus with 18 samples.

Results

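The 10 genes described here form the core of the circadian clock and its best known direct output: Arntl, Clock, Npas2, Nr1d1, Nr1d2, Dbp, Per1, Per2, Per3 and Cry1. They were chosen by gene name, and all 10 were found among the 34714 genes measured in heart RNA. The hearts came from 4 groups of C57 mice, which the study used to ask what loss of Kcp, a secreted modulator of BMP and TGF-beta signalling, does to the pressure-loaded heart: 5 libraries of Kcp knockout hearts after transverse aortic constriction (KO TAC), 4 of Kcp knockout hearts after sham surgery (KO sham), 5 of wild-type hearts after constriction (WT TAC) and 4 of wild-type hearts after sham surgery (WT sham). Constriction narrows the aorta, so that the left ventricle pumps against a raised pressure. The labels give no age, no interval between surgery and collection, and no hour of the day at which the hearts were taken, nor do they describe the knockout allele or state that each library is a separate mouse.

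The clock is a feedback loop of transcription. BMAL1, the product of Arntl, pairs with CLOCK or its relative NPAS2 and binds E-boxes, where it switches on the Per and Cry genes, the nuclear receptor genes Nr1d1 and Nr1d2 (REV-ERB alpha and beta) and Dbp. PER and CRY proteins return to block BMAL1 and CLOCK, and REV-ERB proteins repress Arntl at elements that ROR receptors also bind. DBP and its relatives TEF and HLF act at D-boxes, where NFIL3 represses. In mouse heart Arntl and Npas2 RNA are known to peak around the end of the night, nearly opposite to Dbp, Nr1d1 and the Per genes. The balance between the 2 sides therefore changes over the day, though by itself it does not give an hour.

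The deposited values are FPKM, fragments per kilobase of transcript scaled to the size of the library, a unit inferred from the values, and the depth of the libraries is unknown. The library name of KO sham replicate 2 joins those of KO sham replicates 3 and 4, so it was kept out of the model, which held 17 libraries, and its values are given beside the others. For 7 of the 10 genes its level lay between those of replicates 3 and 4, as it did for 43.2% of the 11937 genes tested. The library of KO TAC replicate 4 also has a joined name, made of 2 numbers that no other library carries. Kcp itself had lower means in the knockout groups but was not absent, at 0.494 to 0.952 FPKM in KO TAC, 0.655 to 0.673 FPKM in KO sham, 0.985 to 1.48 FPKM in WT TAC and 0.794 to 1.43 FPKM in WT sham. The gene Ndufb4c separates WT TAC replicate 5 and all KO libraries from the other WT libraries (it was at 4.47 to 8.08 FPKM in KO TAC, 7.19 to 7.59 FPKM in KO sham, 7.02 FPKM in WT TAC replicate 5 and 35.9 to 49.4 FPKM in the other WT libraries), so a genotype difference and this split can be told apart only through that 1 library. All 6 cardiomyocyte markers were well above 1 FPKM in every group, while the atrial, skeletal muscle, lung and liver lists summed to at most 3.18 FPKM in any library of the model.

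The promoters of 5 of these genes are shown because their letters include elements through which the loop is known to run. Windows of the 250 bases before the annotated start were read from the RefSeq promoter table (GRCm38.p6, the assembly of mm10) for 9 of the 10 genes, and each was searched on both strands for 4 kinds of element: the E-box CACGTG with its variant CACGTT, the D-box TTATGTAA or TTACGTAA, the core AGGTCA of the element shared by ROR and REV-ERB, and the cyclic AMP element TGACGTCA. In the sequences, written 5′ to 3′ along the strand of the gene, the capitals mark each match.
Per1 (chr11:69098699-69098948, plus strand): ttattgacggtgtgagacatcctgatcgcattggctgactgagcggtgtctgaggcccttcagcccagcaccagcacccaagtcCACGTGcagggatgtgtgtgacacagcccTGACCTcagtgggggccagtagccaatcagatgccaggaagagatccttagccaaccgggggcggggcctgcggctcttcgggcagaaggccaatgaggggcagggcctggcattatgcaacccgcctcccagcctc
Cry1 (chr10:85185055-85185304, minus strand): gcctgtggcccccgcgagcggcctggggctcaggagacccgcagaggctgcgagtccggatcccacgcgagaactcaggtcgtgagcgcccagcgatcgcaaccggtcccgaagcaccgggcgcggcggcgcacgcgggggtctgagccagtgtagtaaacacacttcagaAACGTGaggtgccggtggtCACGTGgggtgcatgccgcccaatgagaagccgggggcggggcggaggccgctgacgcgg
Nr1d1 (chr11:98775378-98775627, minus strand): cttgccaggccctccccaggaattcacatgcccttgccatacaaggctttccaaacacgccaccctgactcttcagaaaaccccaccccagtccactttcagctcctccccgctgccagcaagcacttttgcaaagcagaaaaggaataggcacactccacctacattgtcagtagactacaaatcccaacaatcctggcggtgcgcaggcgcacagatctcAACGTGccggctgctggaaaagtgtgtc
Nr1d2 (chr14:18239107-18239356, minus strand): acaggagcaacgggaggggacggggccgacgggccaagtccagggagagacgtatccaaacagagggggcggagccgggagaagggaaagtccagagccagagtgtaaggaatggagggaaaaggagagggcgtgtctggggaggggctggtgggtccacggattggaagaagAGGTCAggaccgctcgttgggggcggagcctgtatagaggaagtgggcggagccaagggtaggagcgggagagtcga
Per3 (chr4:151044666-151044915, minus strand): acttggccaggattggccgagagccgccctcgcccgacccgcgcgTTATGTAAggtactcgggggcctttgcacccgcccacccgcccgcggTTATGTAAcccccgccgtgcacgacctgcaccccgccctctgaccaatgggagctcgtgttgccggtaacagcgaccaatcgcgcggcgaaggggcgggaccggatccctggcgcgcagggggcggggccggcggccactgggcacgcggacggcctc

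The 9 genes had 13 windows, since Arntl, Clock and Per1 have more than 1 annotated start, and the shares below are of windows, not of genes. The windows shown for Per1 and Cry1 held the E-box CACGTG, which 6.02% of all 32851 promoter windows hold. The variant CACGTT stood in Cry1 and Nr1d1 (3.85% of all windows). Per3 alone among the 9 genes held a D-box, in 2 copies that start 205 and 158 bases before its start (0.931% of all windows). AGGTCA stood in 1 window each of Clock (not shown), Nr1d2 and Per1, so in 3 of the 13 (14.0% of all windows). TGACGTCA stood in none of the 9 genes (1.55% of all windows). In the windows of Arntl, Dbp and Npas2 none of these letters were found, which says only that they are not in this stretch.

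Levels of the 10 genes spanned more than 2 orders of magnitude. Averaged over the 17 libraries, Dbp stood highest at 70.2 FPKM, followed by Nr1d1 (27.5 FPKM), Per1 (25.1 FPKM), Nr1d2 (24.5 FPKM), Per2 (10.9 FPKM), Per3 (9.05 FPKM), Cry1 (4.69 FPKM), Clock (2.54 FPKM), Npas2 (0.759 FPKM) and Arntl (0.610 FPKM). Nr1d1, Per1 and Nr1d2 overlapped over most of their ranges and cannot be ordered, and the same holds for Per2 with Per3 and for Npas2 with Arntl. By the ratio of highest to lowest level Arntl varied most, at 51.8 times, against 3.54 times for Dbp, 3.02 times for Nr1d1 and 1.62 times for Cry1. The Arntl ratio rests on 2.25 FPKM in KO TAC replicate 4 over 0.0435 FPKM in KO sham replicate 1. With a lowest level so close to 0, it cannot be compared directly with the ratios of the higher genes. A gene entered the model if it reached 1 FPKM in at least 3 libraries, which 9 of the 10 genes did. Npas2 reached it in 2 libraries, both KO TAC, and was tested by itself. Arntl reached it in 4 libraries, all of them TAC libraries, so the filter itself favours an Arntl that is higher after TAC.

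**Figure D1:**
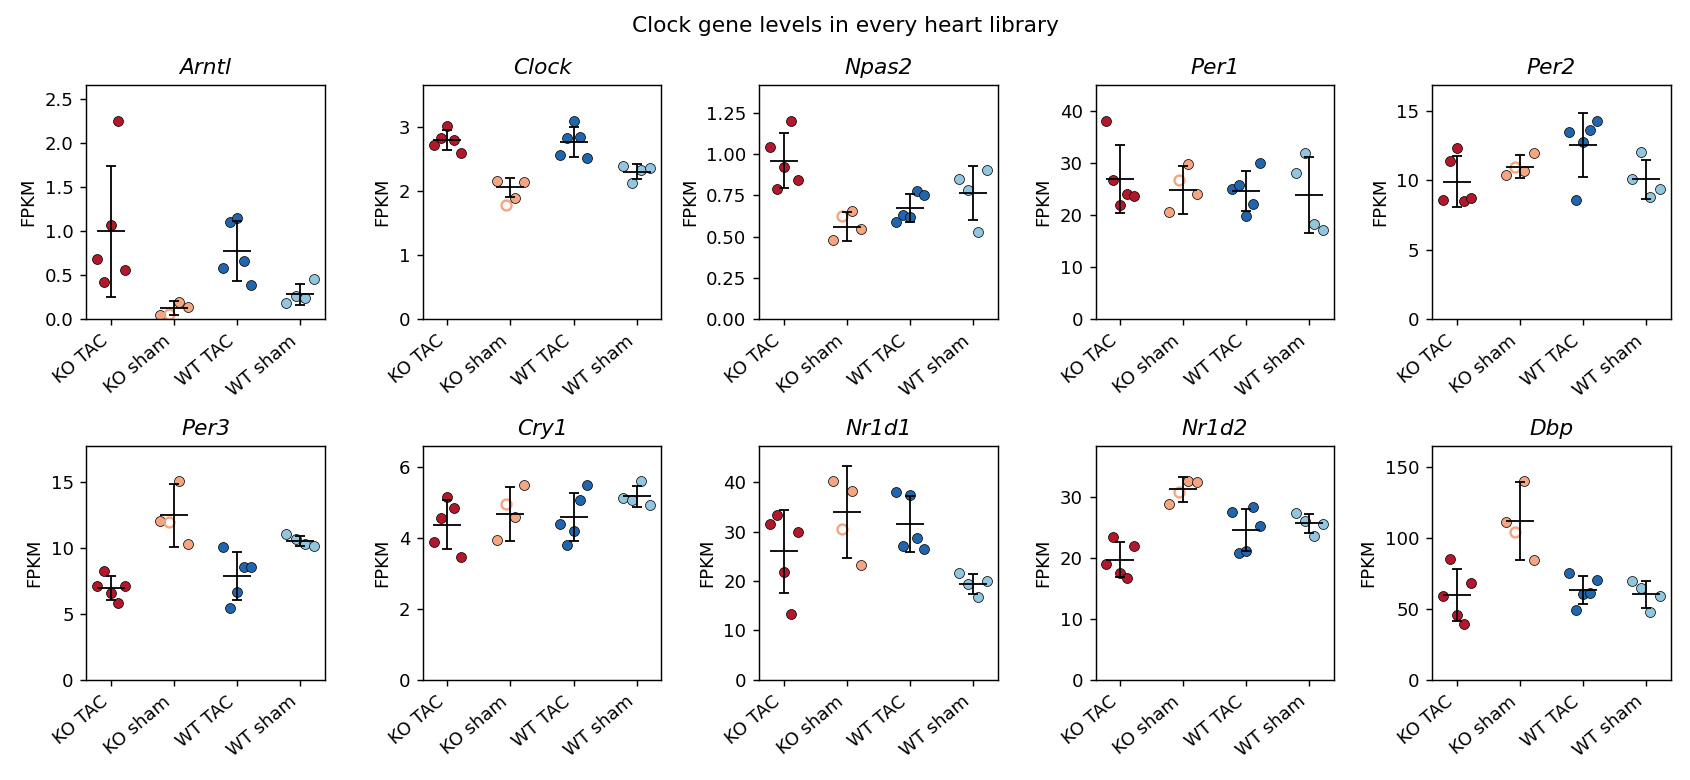
FPKM of each of the 10 clock genes (vertical axis, from 0) in every library, by group; filled points are libraries in the model, the open point is KO sham replicate 2, and bars give mean ± SD of the libraries in the model. Arntl is lowest in KO sham (0.0435 to 0.199 FPKM), where Dbp is highest (84.8 to 140.1 FPKM).

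The first comparison set loaded knockout hearts beside unloaded ones, KO TAC against KO sham. Arntl and Clock, the 2 partners of the activating complex, rose, while Dbp, Nr1d2 and Per3, which that complex drives, fell. Arntl rose 7.82-fold by the mean FPKM and Dbp fell to 0.532 of its sham mean. Per1, Per2, Cry1 and Nr1d1 did not pass the threshold. All differences called below are changes of log2(FPKM + 1) with their standard error and come from 1 limma fit across all 11937 tested genes, with p-values adjusted by Benjamini-Hochberg over all of them and a threshold of 0.05.

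Arntl, the clock gene without whose product the loop stops, had 0.682, 0.422, 1.07, 2.25 and 0.558 FPKM in KO TAC replicates 1 to 5, against 0.0435, 0.199 and 0.141 FPKM in KO sham replicates 1, 3 and 4. Every KO TAC library lay above every KO sham library, with KO TAC replicate 4 far above the rest, and KO sham replicate 2 had 0.0605 FPKM. The log2 change was 0.76 ± 0.21 (limma adjusted p = 0.00766), and 0.57 without KO TAC replicate 4 (limma adjusted p = 0.00988). At such low levels the size depends on the pseudocount, and with 0.1 in place of 1 the change was 2.11 (limma adjusted p = 0.00105). With no filter on low values the adjusted p was 0.017 (limma).

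Clock, which encodes the partner of BMAL1, had 2.71, 2.83, 3.02, 2.80 and 2.60 FPKM in KO TAC, against 2.15, 1.89 and 2.13 FPKM in KO sham replicates 1, 3 and 4. The groups did not overlap, and the rise was smaller than that of Arntl, at 0.31 ± 0.07 (limma adjusted p = 0.00193). Npas2, the alternative partner, had 1.04, 0.789, 0.919, 1.20 and 0.844 FPKM in KO TAC, against 0.482, 0.653 and 0.544 FPKM in KO sham. Here too every KO TAC library lay above every sham library. A 2-sided exact permutation test gave p = 0.0357, the smallest that 5 against 3 libraries allow, and p = 0.0714 adjusted over the 4 comparisons made for this gene. In the fit with no filter its limma adjusted p was 0.0102.

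Dbp, a D-box activator and a direct readout of BMAL1 and CLOCK, had 59.3, 85.4, 45.6, 39.6 and 68.2 FPKM in KO TAC, against 111.5, 140.1 and 84.8 FPKM in KO sham replicates 1, 3 and 4, and 104.4 FPKM in replicate 2. KO TAC replicate 2 stood just above the lowest sham library, and the other 4 lay below all of them. Its log2 change was -0.92 ± 0.22 (limma adjusted p = 0.00403).

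Per3, a period gene with little part in keeping the rhythm itself, had 7.09, 8.26, 6.61, 5.81 and 7.14 FPKM in KO TAC, against 12.0, 15.1 and 10.3 FPKM in KO sham. The groups did not overlap, and the change was -0.75 ± 0.14 (limma adjusted p = 0.000522). Nr1d2, the REV-ERB beta gene, had 19.0, 23.4, 17.5, 16.7 and 21.9 FPKM in KO TAC, against 28.9, 32.5 and 32.3 FPKM in KO sham. Again the groups did not overlap (-0.65 ± 0.11, limma adjusted p = 0.00017).

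Nr1d1, the REV-ERB alpha gene and a repressor of Arntl, had 31.6, 33.4, 21.8, 13.3 and 29.8 FPKM in KO TAC, against 40.1, 38.3 and 23.2 FPKM in KO sham. The groups overlapped, since KO sham replicate 4 was lower than 3 of the KO TAC libraries, and the change of -0.40 ± 0.25 did not pass (limma adjusted p = 0.23). Per1, Per2 and Cry1 ranged over 21.9 to 38.1, 8.52 to 12.3 and 3.46 to 5.15 FPKM in KO TAC, and over 20.6 to 29.7, 10.4 to 11.9 and 3.96 to 5.49 FPKM in KO sham. Their log2 changes were 0.10 ± 0.21, -0.15 ± 0.15 and -0.08 ± 0.11, none past the threshold.

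In all, 2 of the 9 tested clock genes rose and 3 fell in knockout hearts, where 38.8% of all tested genes passed (21.1% higher and 17.7% lower). An unadjusted p under 0.05 was reached by 5 of the 9, against 47.1% of all tested genes. For 5 of the 10 genes the KO TAC and KO sham libraries did not overlap, against 35.8% of all tested genes. The median change of the 9 genes was -0.15 and that of all tested genes 0.01. The same 5 calls were made after leaving out each of the 8 knockout libraries in turn. Among the libraries whose names lie close together in number, KO TAC replicates 1 to 3 against KO sham replicates 1 and 3, Dbp (-1.01), Nr1d2 (-0.60) and Per3 (-0.80) passed, while Arntl (0.61) and Clock (0.35) had limma adjusted p = 0.0636 and 0.0648.

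In bulk RNA, fewer cells of a type and less RNA per cell cannot be told apart, and cell type markers moved with surgery too. The summed FPKM of the 6 cardiomyocyte markers was 27770 to 30293 in KO TAC and 34576 to 37185 in KO sham. That of the 4 fibroblast markers was 352 to 441 in KO TAC and 241 to 298 in KO sham, and that of the 4 macrophage markers 88.0 to 123 in KO TAC and 70.4 to 73.2 in KO sham. Among the cardiomyocyte markers Actc1 overlapped, at 9408 to 10914 FPKM in KO TAC and 8715 to 10310 FPKM in KO sham. The part of these markers in the changes of the clock genes was not tested.

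The same load was then examined with Kcp intact, in WT TAC against WT sham. Clock rose and Per3 fell. Arntl and Nr1d1, which oppose each other in the daily cycle, both had higher means after TAC, at 2.74 and 1.62 times the sham mean, and neither passed. Dbp and Nr1d2, which fell in knockout hearts, were at 1.05 and 0.959 times their sham means.

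Arntl had 0.577, 1.10, 1.15, 0.657 and 0.383 FPKM in WT TAC replicates 1 to 5, against 0.178, 0.258, 0.238 and 0.455 FPKM in WT sham replicates 1 to 4. Only WT TAC replicate 5 reached down into the sham range, below WT sham replicate 4. The log2 change of 0.45 ± 0.19 had limma adjusted p = 0.101. It passed at limma adjusted p = 0.0341 when only the 2 wild-type groups were fitted, and at 0.0452 with a term for the replicate number. It did not pass with no filter (0.18), with any 1 library left out (0.0611 to 0.217) or with a pseudocount of 0.1, where the change was 1.15 (0.0512).

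Clock had 2.57, 2.82, 3.10, 2.85 and 2.52 FPKM in WT TAC, against 2.39, 2.12, 2.33 and 2.36 FPKM in WT sham. The groups did not overlap, with a change of 0.19 ± 0.06 (limma adjusted p = 0.0436). Npas2 overlapped between the groups, at 0.585 to 0.774 FPKM in WT TAC and 0.530 to 0.903 FPKM in WT sham (2-sided exact permutation p = 0.317).

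Nr1d1 had 37.9, 27.1, 37.5, 28.7 and 26.4 FPKM in WT TAC, against 21.6, 19.3, 16.8 and 20.0 FPKM in WT sham. All TAC libraries lay above all sham libraries, and the change of 0.66 ± 0.23 just missed the threshold (limma adjusted p = 0.0538). It passed with all 18 libraries, with median-ratio scaling, with the replicate number as a term, and with only the 2 groups fitted (limma adjusted p = 0.0448, 0.0435, 0.0439 and 0.00258). It did not pass with no filter (0.0848), a pseudocount of 0.1 (0.0548), a term for the split by Ndufb4c (0.0533) or any 1 library left out (0.0533 to 0.118). Nr1d1 shares 263 of its 3077 exonic bases with Thra on the opposite strand, and the counting is not stated to use strand. Thra averaged 22.3 ± 0.595 FPKM in WT TAC (n = 5) and 25.2 ± 0.435 FPKM in WT sham (n = 4, SD), and 20.0 ± 0.88 FPKM in KO TAC (n = 5) and 25.0 ± 3.66 FPKM in KO sham (n = 3, SD). Its mean was thus lower after TAC in both genotypes, while that of Nr1d1 was higher in WT and lower in KO, and reads in the shared bases cannot be told apart.

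Per3 had 10.1, 5.44, 6.70, 8.58 and 8.57 FPKM in WT TAC, against 11.0, 10.6, 10.3 and 10.2 FPKM in WT sham. WT TAC replicate 1 stood close to the sham libraries, yet the groups did not overlap (-0.40 ± 0.13, limma adjusted p = 0.0368). Per2, the period gene most needed for the rhythm, had 13.5, 8.55, 12.8, 13.6 and 14.3 FPKM in WT TAC, against 10.1, 12.0, 8.83 and 9.38 FPKM in WT sham. Replicate 2 lay below all sham libraries and the other 4 above them all. The change of 0.28 ± 0.13 did not pass (limma adjusted p = 0.148), and without WT TAC replicate 2 it was 0.40 (limma adjusted p = 0.0173).

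Dbp ranged over 49.0 to 75.3 FPKM in WT TAC and 48.1 to 70.1 FPKM in WT sham, so that the groups covered nearly the same span (0.07 ± 0.20). Nr1d2 ranged over 20.8 to 28.2 FPKM in WT TAC and 23.5 to 27.4 FPKM in WT sham (-0.07 ± 0.10). Per1 and Cry1 had changes of 0.08 ± 0.19 and -0.15 ± 0.10. Dbp shares 539 of its 2993 exonic bases with Sphk2 on the opposite strand, which averaged 9.12 FPKM in WT TAC and 10.2 FPKM in WT sham.

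Wild-type TAC thus had 1 clock gene called higher and 1 lower of 9 tested, where 21.9% of all tested genes passed (10.7% higher and 11.2% lower), 4 of 9 with an unadjusted p under 0.05, against 34.8% of all tested genes, and 3 of the 10 genes without overlap, against 21.7% of tested genes. The call of Clock held only without WT TAC replicate 1 or 5 among the 9 single libraries left out, and that of Per3 only without WT TAC replicate 1, 4 or 5. With no filter on low values neither passed (limma adjusted p = 0.0523 and 0.079), Clock did not pass with only the 2 groups fitted (0.0787), and Per3 did not with a term for the replicate number (0.0527). The cardiomyocyte markers summed to 30684 to 33559 FPKM in WT TAC and 33970 to 35089 FPKM in WT sham. The fibroblast markers summed to 284 to 461 FPKM in WT TAC and 255 to 328 FPKM in WT sham. Not every marker moved with its sum. Actc1, a cardiomyocyte marker, was at 10194 to 12196 FPKM in WT TAC and 8832 to 9222 FPKM in WT sham. Tcf21, a fibroblast marker, was at 2.32 to 3.62 FPKM in WT TAC and 3.46 to 5.01 FPKM in WT sham. The part of these markers was not tested. The numbers in the library names of WT TAC all lie above those of WT sham, so that whatever the numbering stands for and surgery cannot be told apart in wild type.

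**Figure D2:**
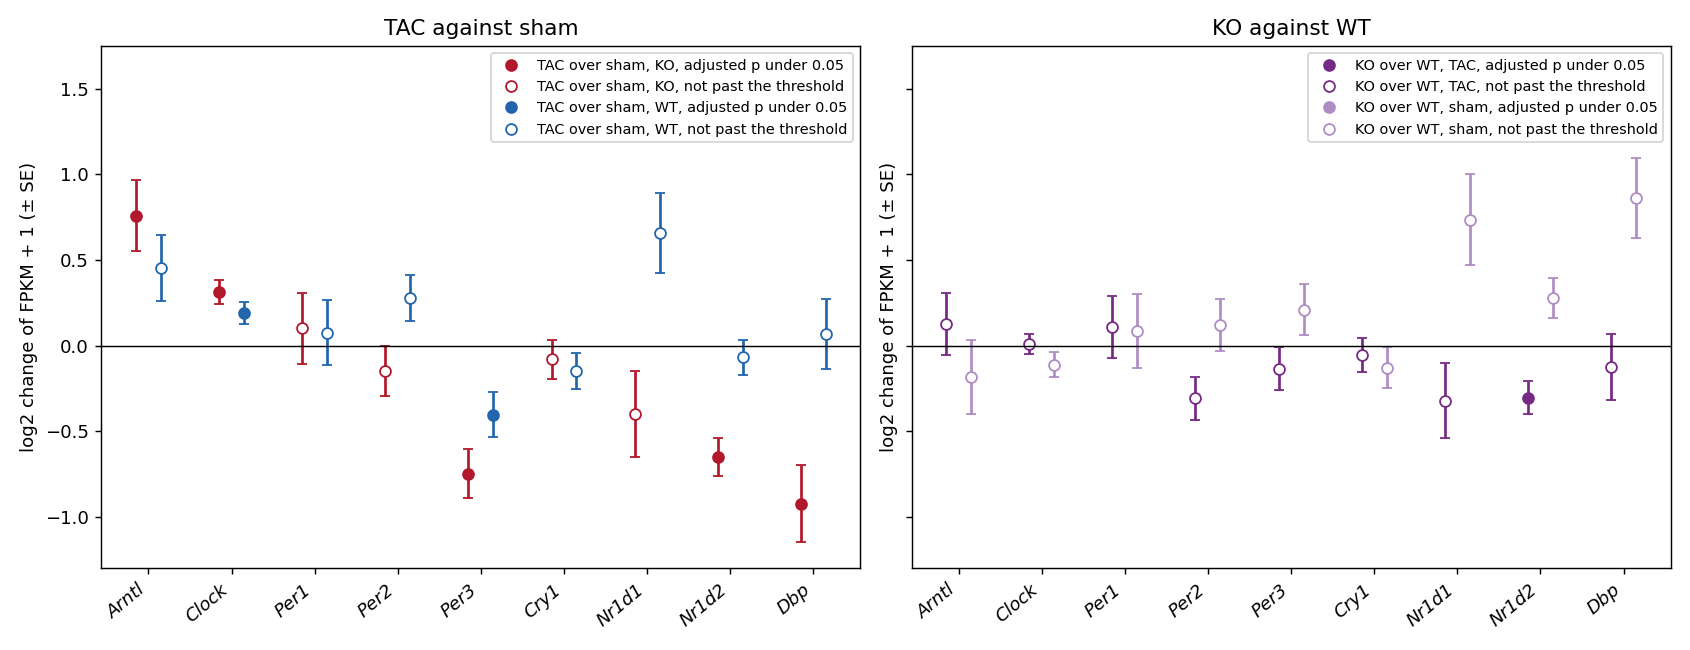
Change of log2(FPKM + 1) with its standard error (vertical axis) for the 9 clock genes in the model, TAC over sham on the left (KO red, WT blue) and KO over WT on the right (TAC dark, sham light). Filled points passed an adjusted p of 0.05; in KO, Arntl and Clock lie above 0 and Per3, Nr1d2 and Dbp below it.

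Knockout sham hearts were compared with wild-type sham hearts to see whether the clock genes differed before any load. The means of Dbp, Nr1d1 and Nr1d2 were higher in KO sham, at 1.85, 1.74 and 1.22 times the WT sham means, and for these 3 genes every KO sham library lay above every WT sham library. None passed the threshold over all genes. Arntl was at 0.128 ± 0.0784 FPKM in KO sham (n = 3) and 0.282 ± 0.12 FPKM in WT sham (n = 4, SD), with overlapping libraries.

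Dbp had 111.5, 140.1 and 84.8 FPKM in KO sham replicates 1, 3 and 4, against 70.1, 64.6, 48.1 and 59.0 FPKM in WT sham replicates 1 to 4. The difference was 0.86 ± 0.23 (limma adjusted p = 0.0919). With KO sham replicate 2 included it was 0.85 (limma adjusted p = 0.0489), and among KO sham replicates 1 and 3 and WT sham, whose library names lie close together in number, it was 1.05 (limma adjusted p = 0.0218). Nr1d1, at 23.2 to 40.1 FPKM in KO sham and 16.8 to 21.6 FPKM in WT sham, differed by 0.74 ± 0.26 (limma adjusted p = 0.21), and by 0.98 among those libraries (limma adjusted p = 0.0014), a subset that leaves out KO sham replicate 4, the lowest of the KO sham libraries in both genes. With a term for the split by Ndufb4c the differences were 0.66 for Dbp and 1.02 for Nr1d1. Neither passed (limma adjusted p = 0.903 and 0.853). The size of that term comes from WT TAC replicate 5 against the other WT TAC libraries. All KO and no WT sham libraries carry it, so this fit separates genotype from the split only through that 1 library. Neither gene passed with any 1 library left out (limma adjusted p = 0.0899 to 0.265 for Dbp and 0.147 to 0.428 for Nr1d1) or with no filter (0.13 and 0.295). Nr1d2, at 28.9 to 32.5 FPKM in KO sham and 23.5 to 27.4 FPKM in WT sham, differed by 0.28 ± 0.12 (limma adjusted p = 0.286).

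The threshold was reached by 0 of 9 tested clock genes in limma and 3 of them had an unadjusted p under 0.05, where 1.26% of all tested genes passed the adjusted threshold (0.645% higher and 0.62% lower) and 14.2% the unadjusted one. Of the 10 genes 3 did not overlap, against 15.4% of tested genes. Clock, Per1, Per2, Per3 and Cry1 differed by -0.11, 0.09, 0.12, 0.21 and -0.13. Npas2 was at 0.560 ± 0.0866 FPKM in KO sham (n = 3) and 0.766 ± 0.165 FPKM in WT sham (n = 4, SD; 2-sided exact permutation p = 0.171).

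After TAC, knockout hearts were set against wild-type hearts to see whether the loaded hearts differed. Nr1d2 was lower in knockout hearts and was the single tested clock gene past the threshold. Npas2, outside the model, was higher in every KO TAC library than in any WT TAC library. The means of Arntl, Clock, Per1, Cry1 and Dbp were between 0.941 and 1.29 times those of WT TAC.

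Nr1d2 had 19.0, 23.4, 17.5, 16.7 and 21.9 FPKM in KO TAC, against 27.5, 20.8, 21.1, 28.2 and 25.2 FPKM in WT TAC. Beside this, the cardiomyocyte markers summed to 27770 to 30293 FPKM in KO TAC and 30684 to 33559 FPKM in WT TAC, without overlap, and their part was not tested. The Nr1d2 libraries overlapped, and the difference was -0.30 ± 0.10 (limma adjusted p = 0.0478). The call was lost without WT TAC replicate 1, 4 or 5 or KO TAC replicate 1, 3 or 4 (limma adjusted p up to 0.124), and with a term for the replicate number (0.0676). With a term for the split by Ndufb4c, sized by WT TAC replicate 5 against the other WT TAC libraries, the adjusted p was 0.324 (limma). Npas2 had 1.04, 0.789, 0.919, 1.20 and 0.844 FPKM in KO TAC, against 0.585, 0.629, 0.621, 0.774 and 0.750 FPKM in WT TAC. A 2-sided exact permutation test gave p = 0.00794, the smallest possible, and p = 0.0317 adjusted over the 4 comparisons. In the fit with no filter, adjusted over all genes as for the other clock genes, Npas2 did not pass (0.23 ± 0.07, limma adjusted p = 0.0927).

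Per2 had a mean of 9.91 ± 1.82 FPKM in KO TAC and 12.5 ± 2.3 FPKM in WT TAC (SD, n = 5 each). The difference of -0.31 ± 0.13 did not pass (limma adjusted p = 0.125), and without WT TAC replicate 2 it was -0.43 (limma adjusted p = 0.02). Of all tested genes 11.3% passed between the genotypes after TAC, 6.53% higher and 4.78% lower in knockout. An unadjusted p under 0.05 was reached by 2 of the 9 clock genes, Nr1d2 and Per2, against 26.5% of all tested genes, and of the 10 clock genes 1 did not overlap, against 6.69% of tested genes. The numbers in the library names of WT TAC form a block of their own that holds none of KO TAC, so that whatever the numbering stands for and genotype cannot be told apart here or in the interaction.

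The difference between the TAC responses of the genotypes was tested as an interaction. The estimates for Nr1d1, Dbp and Nr1d2 were -1.06 ± 0.34, -0.99 ± 0.30 and -0.58 ± 0.15, so that all 3 had the lower change in knockout. None passed over all genes (limma adjusted p = 0.117, 0.102 and 0.0658), where 0.93% of genes did (0.377% higher and 0.553% lower). At an unadjusted p under 0.05 stood 4 of the 9 clock genes, with Per2 as the other (-0.43 ± 0.20), and 18.8% of all tested genes. Without KO TAC replicate 2 the interaction passed for Nr1d2 (-0.64, limma adjusted p = 0.0163) and Dbp (-1.13, limma adjusted p = 0.0269). Neither passed with any other single library left out (up to 0.127 for Nr1d2 and 0.203 for Dbp) or with a term for the split by Ndufb4c (0.109 and 0.155). Arntl, Clock and Per3 had estimates of 0.31 ± 0.28, 0.12 ± 0.10 and -0.34 ± 0.20. The comparisons share libraries: KO sham enters both the knockout response and the sham comparison.

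Genes of opposite phase were then set against each other library by library, since hearts taken at other hours could differ along that axis. The mean log2(FPKM + 1) of Dbp, Nr1d1, Nr1d2, Per1, Per2 and Per3 was subtracted from that of Arntl, Npas2 and Clock. This difference is a description and was given no test. It was -3.25, -3.54, -2.91, -2.41 and -3.29 in KO TAC replicates 1 to 5, and -4.02, -4.04, -4.16 and -3.83 in KO sham replicates 1 to 4. It was -3.68, -3.03, -3.19, -3.40 and -3.60 in WT TAC replicates 1 to 5, and -3.61, -3.63, -3.36 and -3.27 in WT sham replicates 1 to 4. KO sham lay below all other libraries, KO TAC replicate 4 above all others, and WT TAC covered the whole span of WT sham and more. The means were -3.08 ± 0.436 in KO TAC (n = 5), -4.01 ± 0.165 in KO sham (n = 3), -3.38 ± 0.274 in WT TAC (n = 5) and -3.47 ± 0.18 in WT sham (n = 4, SD). The KO TAC and KO sham libraries did not overlap on this axis, and the WT TAC and WT sham libraries did. As no hour of collection is given, the clock phase at which a group was sampled and an effect of surgery or genotype cannot be told apart.

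**Figure D3:**
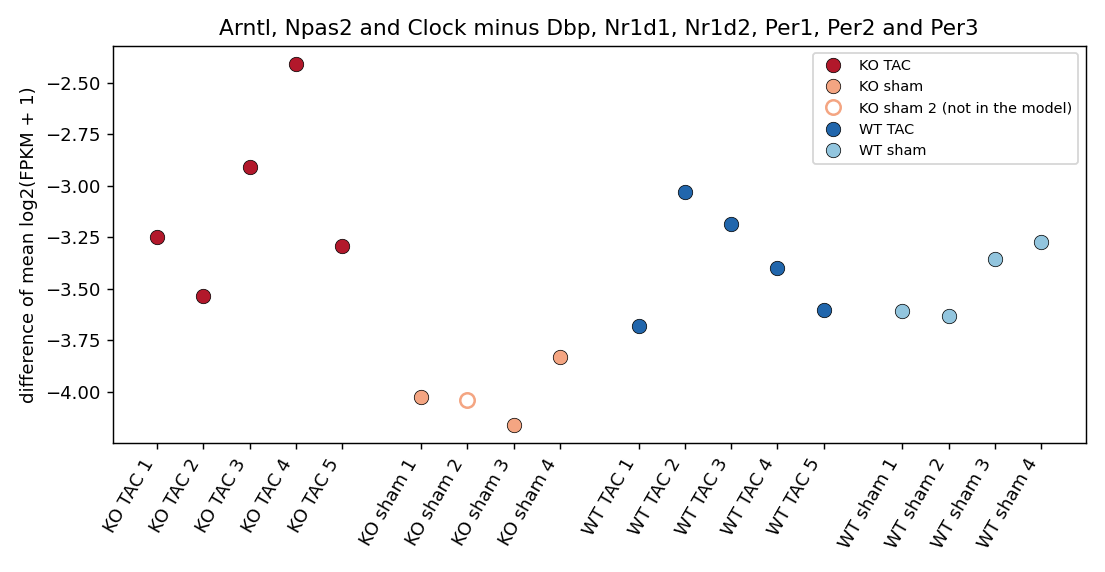
Mean log2(FPKM + 1) of Arntl, Npas2 and Clock minus that of Dbp, Nr1d1, Nr1d2, Per1, Per2 and Per3 (vertical axis) in each library, coloured by group; the open point is KO sham replicate 2. The KO sham libraries lie between -4.16 and -3.83, below every other library, and KO TAC replicate 4 is highest at -2.41.

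Whether libraries of the same group also spread along this axis was examined after each group mean had been subtracted. Across the 17 libraries Arntl ran against Dbp (Pearson r = -0.71, permutation p = 0.00632, adjusted p = 0.0331 over the 9 pairs; Spearman rho = -0.71, permutation p = 0.00542). It ran against Nr1d2 (r = -0.72, permutation p = 0.011, adjusted 0.0331; rho = -0.70, permutation p = 0.0191) and Per3 (r = -0.63, permutation p = 0.00777, adjusted 0.0331; rho = -0.71, permutation p = 0.00398) as well. The permutations were 2-sided and kept libraries within their groups. None of the 3 pairs passed with a pseudocount of 0.1 (permutation adjusted p = 0.0829 for each) or without any 1 of WT TAC replicates 1, 2 and 4 and KO TAC replicates 1, 2, 4 and 5 (0.0544 to 0.121). An r with Arntl of at least 0.63 in size was found for 2.69% of the other tested genes. Without KO TAC replicates 2 and 4, the libraries farthest from the median of Arntl, r was -0.49 for Dbp, -0.62 for Nr1d2 and -0.57 for Per3. For Nr1d1 r was -0.62 (permutation p = 0.0565, adjusted 0.127; rho = -0.51, permutation p = 0.0732) and -0.15 without those libraries. Clock (0.38), Npas2 (0.44), Per1 (-0.32), Per2 (-0.37) and Cry1 (0.07) had r values that did not pass.

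The relation was seen within the TAC libraries. Over these 10, r of Arntl was -0.88 with Dbp, -0.81 with Nr1d2 and -0.74 with Per3 (permutation p = 0.0023, 0.00653 and 0.00406, adjusted 0.0183, 0.0196 and 0.0183). Spearman rho was -0.88, -0.76 and -0.73 (permutation p = 0.00358, 0.0191 and 0.0187), and r was -0.93, -0.78 and -0.75 without the 2 farthest libraries, KO TAC replicate 4 and WT TAC replicate 3. Within the 7 sham libraries none passed, with r between -0.27 and 0.52 and every permutation adjusted p at 0.951. There r of Arntl was 0.02 with Dbp, 0.21 with Nr1d2 and 0.09 with Per3, and rho was -0.14, 0 and -0.25. Without the 2 farthest libraries, KO sham replicate 3 and WT sham replicate 4, r was -0.69, 0.15 and -0.73. For Dbp and Per3 the direction among sham libraries thus depended on those 2 libraries. Arntl was below 0.5 FPKM in all sham libraries.

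All 45 pairs of the 10 genes were tested as well, a set added after the values were seen. Of these 4 passed, all with positive r, and 11 had an unadjusted p under 0.05. Adjusted over the 45, the pairs of Arntl with Dbp, Per3 and Nr1d2 did not pass (permutation adjusted p = 0.0569, 0.0583 and 0.0701). The 4 passing pairs joined Dbp, Per3, Nr1d1 and Nr1d2. Dbp went with Per3 (r = 0.80, permutation adjusted p = 0.00045; rho = 0.88), Nr1d1 (r = 0.80, permutation adjusted p = 0.0294; rho = 0.71) and Nr1d2 (r = 0.75, permutation adjusted p = 0.0294; rho = 0.73). Per3 went with Nr1d2 (r = 0.76, permutation adjusted p = 0.0294; rho = 0.81). The unadjusted permutation p-values were 1e-05 for Dbp with Per3, the smallest these permutations can give, and 0.00248, 0.00261 and 0.00254 for the other three, and those of rho were 9e-05, 0.0126, 0.00444 and 0.0009 in the same order. Without the 2 libraries farthest from the median, the 4 values of r were 0.82, 0.69, 0.64 and 0.69. An r with Dbp of at least 0.75 in size was found for 0.695% of the other tested genes, and one with Per3 of at least 0.76 for 1.1%. Nr1d1 with Nr1d2 (r = 0.42, permutation adjusted p = 0.357) and Per3 with Nr1d1 (r = 0.55, permutation adjusted p = 0.15) did not pass, nor did any pair of Per1 or Per2.

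**Figure D4:**
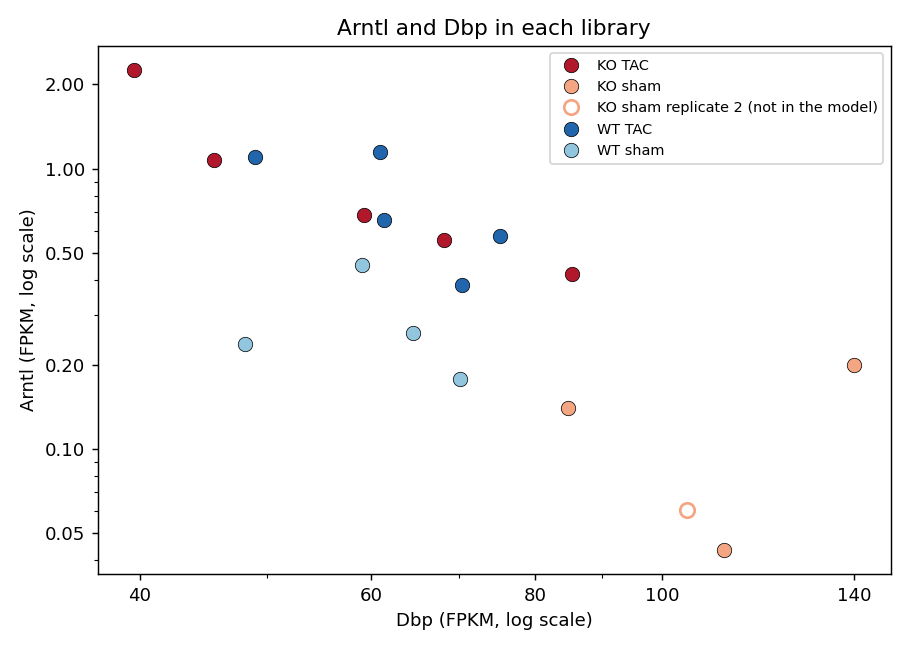
FPKM of Arntl (vertical axis, log scale) against FPKM of Dbp (horizontal axis, log scale) in each library, coloured by group, with KO sham replicate 2 as the open point. The KO TAC libraries run from high Arntl with low Dbp (2.25 and 39.6 FPKM in replicate 4) to low Arntl with high Dbp (0.422 and 85.4 FPKM in replicate 2), and the KO sham libraries lie at the lower right.

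The genes whose deviations from the group means were most like those of Arntl over the 17 libraries, among 10742 named genes, were Sbno2 (r = 0.84), Osmr (0.81), the oncostatin M receptor gene, Adamtsl5 (0.79), Pknox2 (0.76) and Snrpn (0.75). For Dbp they were Ppat (0.91), which encodes the enzyme of the committed step of purine synthesis, Pced1b (0.88), Ppifos (0.85), St8sia4 (0.85) and Psmg3 (0.84). These values of r are descriptions, taken as the highest of many, and carry no p.

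The wider clock was read from a list of 18 further genes, of which 16 were tested. In knockout hearts 4 rose and 6 fell after TAC, and in wild-type hearts 0 rose and 4 fell. In knockout the share of the 16 that was called lay above the 38.8% of all tested genes. In wild type it was close to the 21.9% of all tested genes. This list, like those below, was chosen with earlier results of these data known, so its shares are descriptions only. Cry2, Hlf, Nampt and Tef fell in both. The median changes of the list were -0.05 in knockout and -0.09 in wild type, against 0.01 and -0.01 for all tested genes. Rorb and Fbxl21, at most 0.195 and 0.431 FPKM in any library of the model, were not tested.

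The PAR-domain genes Hlf and Tef, relatives of Dbp that act at the same D-boxes, fell in both genotypes. Hlf was at 4.37, 6.03, 3.97, 3.46 and 3.93 FPKM in KO TAC, against 9.54, 12.2 and 9.75 FPKM in KO sham replicates 1, 3 and 4. It was at 6.63, 4.18, 4.97, 6.70 and 6.68 FPKM in WT TAC, against 7.83, 9.63, 7.96 and 7.38 FPKM in WT sham. TAC libraries lay below sham libraries in each genotype, with changes of -1.11 ± 0.15 in KO (limma adjusted p = 1.72e-05) and -0.44 ± 0.14 in WT (limma adjusted p = 0.0275). Tef changed by -0.73 ± 0.09 in KO (41.0 ± 6.4 FPKM in KO TAC, n = 5, and 68.0 ± 0.479 FPKM in KO sham, n = 3, SD) and by -0.34 ± 0.08 in WT (49.9 ± 3.53 FPKM in WT TAC, n = 5, and 63.2 ± 2.87 FPKM in WT sham, n = 4). After TAC, Tef was lower in KO than in WT (-0.29 ± 0.08, limma adjusted p = 0.0251).

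Nfil3, the repressor at D-boxes, rose in knockout hearts. It was at 12.9, 6.36, 15.5, 12.1 and 6.50 FPKM in KO TAC, against 3.08, 2.43 and 4.69 FPKM in KO sham (1.36 ± 0.29, limma adjusted p = 0.00179). Every KO TAC library lay above every KO sham library. Bhlhe40 and Bhlhe41, the DEC repressors that compete at E-boxes, rose in KO by 0.75 ± 0.26 and 0.34 ± 0.12 (limma adjusted p = 0.0324 and 0.0364). Csnk1d, a kinase gene whose product phosphorylates PER, rose in KO by 0.37 ± 0.07 (limma adjusted p = 0.000579). In WT, Nfil3, Bhlhe40, Bhlhe41 and Csnk1d changed by 0.64 ± 0.27, 0.54 ± 0.24, 0.02 ± 0.11 and 0.15 ± 0.07, none past the threshold. For Bhlhe40 every WT TAC library lay above every WT sham library. Their interactions did not pass (limma adjusted p = 0.344, 0.782, 0.32 and 0.242), so a rise limited to knockout is not shown.

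Among the repressor side, Cry2 fell in both genotypes, by 0.30 ± 0.08 on the log2 scale in KO and by 0.27 ± 0.08 in WT (limma adjusted p = 0.00829 and 0.019). Ciart, an output repressor gene with strong daily rhythm, fell in KO (12.4 ± 4.28 FPKM in KO TAC, n = 5, and 18.5 ± 2.96 FPKM in KO sham, n = 3, SD; limma adjusted p = 0.0474). In WT it was at 15.02 ± 3.27 FPKM after TAC (n = 5) and 10.7 ± 1.45 FPKM after sham (n = 4, SD), with no overlap, and did not pass (limma adjusted p = 0.148). Ciart thus had changes of opposite sign in the genotypes, as Nr1d1 did, and its interaction of -1.03 ± 0.31 had limma adjusted p = 0.0956. The sham groups already differed in mean, with every KO library above every WT library (0.73 ± 0.24, limma adjusted p = 0.16). After TAC the genotypes overlapped (-0.30 ± 0.19, limma adjusted p = 0.358).

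Nampt, the rate-limiting enzyme gene of NAD salvage and a clock output, fell in both genotypes (-0.77 ± 0.11 in KO and -0.80 ± 0.10 in WT, limma adjusted p = 3.04e-05 and 4.77e-05). Usp2, a deubiquitinase gene under clock control, fell in KO (-0.47 ± 0.12, limma adjusted p = 0.00488). In WT its change of -0.10 ± 0.11 did not pass (limma adjusted p = 0.579), nor did its interaction (limma adjusted p = 0.225). After TAC, Bhlhe41 was higher in KO than in WT (0.39 ± 0.11) and Nampt lower (-0.32 ± 0.10; limma adjusted p = 0.0275 and 0.0388). After sham the differences were 0.07 ± 0.13 and -0.35 ± 0.12 (limma adjusted p = 0.858 and 0.158). For Nampt every KO sham library lay below every WT sham library, and its interaction was 0.03 ± 0.15 (limma adjusted p = 0.935).

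**Figure D5:**
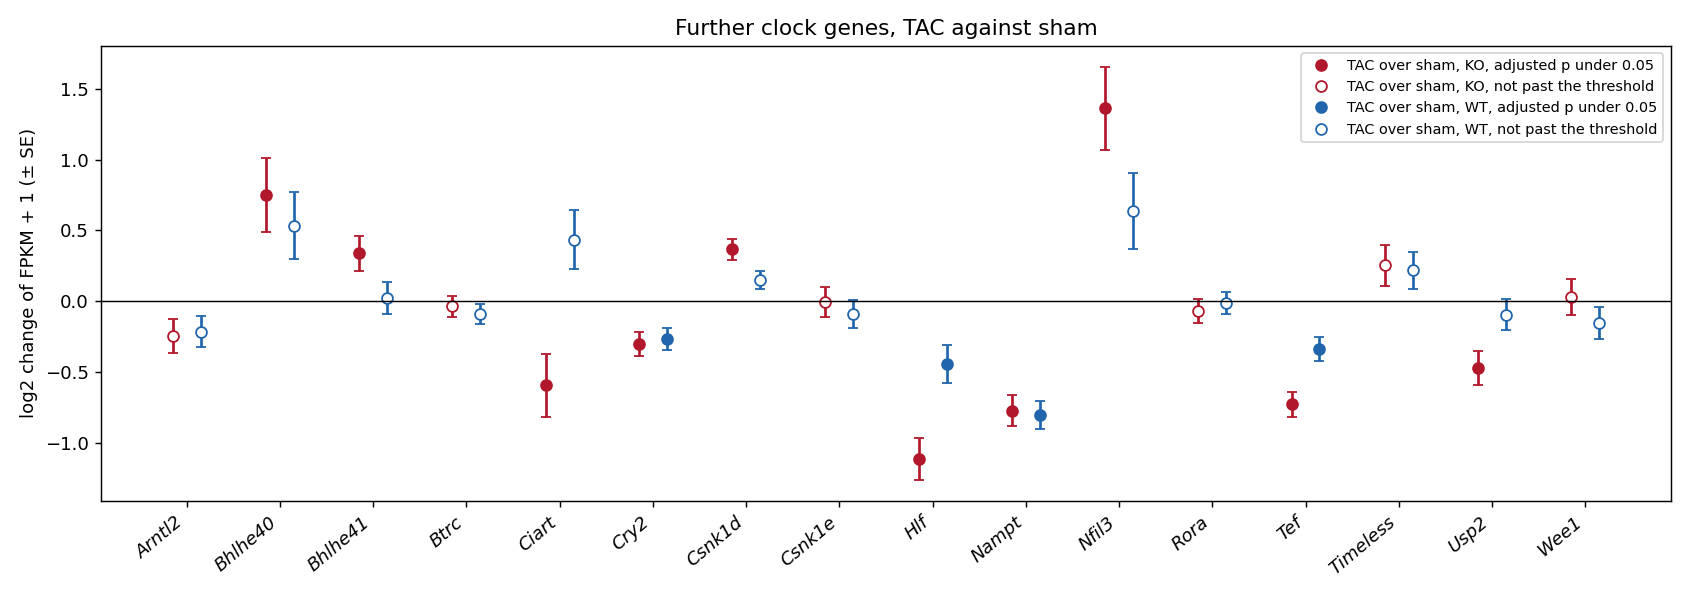
Change of log2(FPKM + 1) with its standard error (vertical axis), TAC over sham, for the 16 tested further clock genes in KO (red) and WT (blue). Filled points passed an adjusted p of 0.05; Hlf, Tef, Nampt and Cry2 lie below 0 and filled in both genotypes, and Nfil3 is highest, at 1.36 in KO.

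Cardiac output genes of the clock were taken as a list of 12, all tested. In knockout hearts 3 rose and 6 fell after TAC, and in wild-type hearts 1 rose and 5 fell, with median changes of -0.31 and -0.21, against 0.01 and -0.01 for all tested genes. Of all tested genes 38.8% were called in knockout and 21.9% in wild type. Kcnip2, an accessory subunit gene of the transient outward potassium channel, fell in KO (-0.77 ± 0.15) and WT (-0.47 ± 0.13; limma adjusted p = 0.000528 and 0.0197). Klf15, the transcription factor gene that drives it with a daily rhythm, fell in KO (-0.48 ± 0.12, limma adjusted p = 0.00534). The Klf15 change of -0.25 ± 0.11 in WT did not pass (limma adjusted p = 0.127), nor did its interaction (limma adjusted p = 0.49). Kcnh2 (-0.83 in KO and -0.63 in WT), Dgat2 (-0.88 and -0.35), Ucp3 (-0.95 and -0.71) and Pnpla2 (-0.34 and -0.17) fell in both, and Bdh1, a ketone body enzyme gene, rose in both (1.12 and 1.38). Pdk4 (1.38) and Nmrk2 (2.38) rose in KO. In WT their changes of 0.78 and 1.28 did not pass (limma adjusted p = 0.173 and 0.0549). Every WT TAC library lay above every WT sham library for Nmrk2. The interactions of Pdk4 and Nmrk2 did not pass (limma adjusted p = 0.619 and 0.395). Between the genotypes after TAC, Angptl4 (1.11) and Pdk4 (1.20) were higher and Dgat2 (-0.34) lower in KO. After sham the differences of these genes were 0.76, 0.60 and 0.19, none past the threshold. For Angptl4 and Dgat2 every KO sham library lay above every WT sham library.

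Hormone and stress inputs to the Per genes were covered by 2 short lists, also chosen with earlier results of these data known. Of 8 glucocorticoid-induced genes, which include Per1 itself, 5 rose in KO and 4 in WT after TAC and 0 fell, where 21.1% of all tested genes rose in KO and 10.7% in WT. Fkbp5, a sensitive glucocorticoid target, rose in KO, at 19.6, 12.9, 23.2, 21.8 and 28.6 FPKM in KO TAC, against 5.93, 3.04 and 18.2 FPKM in KO sham (1.41 ± 0.39, limma adjusted p = 0.0109). These libraries overlapped. In WT, Fkbp5 changed by 1.03 ± 0.36 and just missed the threshold (limma adjusted p = 0.0547), with every TAC library above every sham library. Its interaction did not pass (limma adjusted p = 0.747). Sgk1 (0.58 in KO and 0.54 in WT), Tsc22d3 (0.34 and 0.32), Mt2 (1.93 and 1.37) and Cdkn1a (2.23 and 1.65) rose in both, whereas Per1 changed by 0.10 ± 0.21 and 0.08 ± 0.19. After TAC, Mt2 was higher in KO than in WT (1.02 ± 0.27, limma adjusted p = 0.0255). Of 8 immediate early genes, Atf3 rose in KO (2.36 ± 0.53) and in WT (1.45 ± 0.49; limma adjusted p = 0.0026 and 0.0451) and 0 fell, so that 1 of 8 is not above the share of all genes in KO and near it in WT. The median changes were 0.46 in KO and 0.43 in WT for the glucocorticoid-induced genes, and 1.21 in KO and -0.12 in WT for the immediate early genes. Within WT sham the second list was uneven, shown here by Fos, which was chosen after its values were seen: replicates 1 and 3 had 45.8 and 101.4 FPKM of Fos, against 8.67 and 4.75 FPKM in replicates 2 and 4. Per1 did not follow, at 28.1 and 18.3 FPKM in replicates 1 and 3 and 32.0 and 17.1 FPKM in replicates 2 and 4.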

How the data were processed

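Heart RNA of 18 libraries was measured. The labels name a Qiagen RNeasy extraction, with 1.3 ug of RNA put into each SMARTER library. The deposited table holds FPKM values made by the authors, a unit inferred here because the file does not name it: values were not whole and summed to 390453 to 432264 per library. The submitters' processing notes give mm10; the sources used here state no aligner or counter. Depth is unknown, so no counting interval is given.

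Values were analysed as log2(FPKM + 1) for 11937 of 34714 genes with at least 1 FPKM in at least 3 of 17 libraries, without KO sham replicate 2. One mean per group was fitted with limma 3.58.1 (trend, robust) in R 4.3.3, with Benjamini-Hochberg adjustment over all tested genes at 0.05, for 5 contrasts; equal replicate numbers were not used as a block. As the labels do not state that libraries are separate mice, p-values measure the spread between these libraries, which may be technical. Correlations used 100000 permutations within groups (numpy 2.4.6), and Npas2 exact tests scipy 1.17.1. The fit was tested on simulated data. Genes named are the 10 clock genes, members of 4 lists that passed, with Fos and 2 untested members (some genes are not reported here and stand in no list), and the 5 genes most like Arntl and Dbp. The members and lists were chosen with earlier results of these data known. Alternatives were all 18 libraries, a replicate block, a pseudocount of 0.1, no filter, median-ratio scaling, only the groups compared, libraries left out, only libraries whose names lie close in number, and a term for the Ndufb4c split. Sequences and coordinates are from RefSeq, GRCm38.p6.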

Additional observations from a re-analysis of the deposited data

Results flagged for a closer look

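Per2 in WT TAC replicate 2, at 8.55 FPKM, stood apart from the other 4 WT TAC libraries (12.8 to 14.3 FPKM), its gap to the nearest being 0.734 of the range of the group. Of 30 groups of libraries examined over the 10 genes this was the only one, and chance flags about 1 in 20.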

How the results depend on the processing

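Of the knockout calls, Dbp, Nr1d2 and Per3 passed under every alternative run, and Arntl and Clock under all but the fit of libraries whose names lie close in number, where 3 clock genes and 2391 of all genes passed. Leaving out 1 library gave 5 clock genes throughout for KO TAC against sham (3731 to 4733 of all genes), 0 to 2 for WT (1985 to 2626), 0 for KO against WT after sham (51 to 147), 0 to 2 after TAC (669 to 1838) and 0 to 2 for the interaction (10 to 595, against 111 in the main fit). With all 18 libraries 1 clock gene passed in sham and 1 in the interaction (300 of all genes). With the replicate block, 0 passed between genotypes after TAC and 345 of all genes in the interaction. No pairing of libraries by number was seen: r of deviations was -0.238 to 0.157 over 22 same-number pairs, and 3 of 17 libraries matched their own number best. With groups this small, such r values cannot exclude that equal numbers mark something shared. With no filter 0 clock genes passed in WT and 0 after TAC between genotypes, and 16 of all genes in the interaction. Median-ratio scaling gave 1 clock gene and 204 genes in the interaction. With only the groups compared, 0 clock genes and 822 genes passed between genotypes after TAC. Without WT TAC replicate 5 and KO TAC replicate 2 together, 4 clock genes passed in WT and 2 in the interaction (461 of all genes). With the Ndufb4c term, sized by WT TAC replicate 5 against the other WT TAC libraries, 12 genes passed in sham between genotypes, 243 after TAC (0 clock genes) and 17 in the interaction. Among libraries with names close in number 2 clock genes passed in sham. Of the 9 Arntl pairs, 3 passed in the main test, 0 with a pseudocount of 0.1, 5 without subtracting group means, and 0 to 4 with 1 library left out. That pseudocount moved the opposite-phase means to -3.76 (KO TAC), -5.32 (KO sham), -4.18 (WT TAC) and -4.49 (WT sham). The cause was not tested for any of these.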
